A study of Drosophila melanogaster with 22 samples.

Results

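The fibroblast growth factor (FGF) genes of Drosophila melanogaster were followed across tissue, larval age and wasp infestation. They were chosen by name, and with results of the nanopore gene counts known, as 6 genes of 18068 in the tables: the ligand genes pyr, ths and bnl, the receptor genes btl and htl, and the adaptor gene stumps. Because the choice used those counts, nanopore values of the 6 genes are a description. Where the fit over all genes called one of them, the call is listed beside the share of all genes called, and it is no independent test of that gene. In flies the ligands Pyramus and Thisbe bind the receptor Heartless, and the ligand Branchless binds the receptor Breathless. Both receptors are tyrosine kinases that pass the signal through the adaptor Stumps (Dof) to the Ras/MAPK cascade, and cell-surface heparan sulfate chains help the ligands to bind. Branchless and Breathless are best known for guiding tracheal branches, and the Heartless branch for spreading of the embryonic mesoderm. In the lymph gland, Heartless signalling is known to promote differentiation of blood progenitors.

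All larvae were of the wild-type strain OreR, either infested by a wasp or normal, and were taken at 96 h or 120 h after egg laying. Infested larvae were 24 h past the attack at 96 h and 48 h past it at 120 h. Circulating hemocytes, called blood here, were shaken out of 100 to 150 pooled larvae per condition, and lymph glands, where larvae make further hemocytes, were dissected separately. For blood the labels also give 10 larvae dissected per replicate, and they do not say how these figures relate. Nanopore libraries of 1 kit covered lymph glands at 96 h (3 infested, 3 normal), blood at 96 h (3 infested, 2 normal) and blood at 120 h (3 infested, 2 normal). A further nanopore library of 120 h normal lymph glands was made with another kit. Single Illumina libraries covered 96 h infested lymph glands and infested and normal blood at both ages, so their differences have no replicate check. The labels do not say that replicates came from separate larvae, so p-values measure the spread between these samples, which may be technical.

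The 16 nanopore libraries of the same kit held 356632 to 2079764 gene counts, and the 120 h lymph gland library held 6223590. At a count of 0 the upper limit was 1.44 to 8.41 CPM (counts scaled to the library total) in the 16 libraries. Illumina libraries held 14750855 to 24307061 expected counts. Markers of the labelled tissues were present: all 8 plasmatocyte genes listed had reads in every nanopore library. The 4 prohemocyte genes summed to 953 to 3135 CPM in lymph glands and to 199 to 332 CPM in blood. Of these 4, only 2 to 4 had reads in each lymph gland library and 2 or 3 in each blood library. Blood replicates 2 and 3 differed less from each other (chi-square per gene 2.67 to 3.18) than other replicate pairs did (6.14 to 20.4), and all pairs differed by more than sampling noise. Normal blood held only replicates 2 and 3 at both ages, whereas infested blood also held replicate 1. The SD of normal blood with nanopore thus covers only this more similar pair, and in blood the replicate set differed between infested and normal. One Illumina library, normal blood at 120 h, stood apart. Of 11143 genes, 49.3% differed at least 2-fold between it and normal blood at 96 h, and a list of 8 male germline genes, drawn up after the values were seen, summed to 807 CPM in it.

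Coordinates are those of the BDGP6.54 annotation, which the deposited files do not name as their build. The ligand gene pyr (FBgn0033649) lies at 2R:11712263-11726345 on the plus strand with 1 annotated transcript and no overlapping gene. The ligand gene ths (FBgn0033652) lies on the same strand at 2R:11756817-11814424, and 3 other genes lie within its span without sharing exon bases. The ligand gene bnl (FBgn0014135) is at 3R:19794073-19836817 on the minus strand. Of the receptors, btl (FBgn0285896) is at 3L:14075772-14083229 on the plus strand and htl (FBgn0010389) at 3R:18045216-18052984 on the minus strand. The adaptor gene stumps (FBgn0020299) is at 3R:14577217-14608079 on the plus strand.

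Infestation went with reads of 2 of the 6 genes, the ligand gene pyr and the receptor gene btl, most of all in blood at 120 h. Over the 16 libraries pyr had 165 reads, all in infested samples: 8 of 9 infested libraries had a read, against 0 of 7 normal libraries. The receptor gene btl had 89 reads, of which 83 came from the 9 infested libraries, each with at least 1, and 6 from 3 of the 7 normal libraries. The ligand gene bnl had 29 reads, 9 in infested and 20 in normal libraries. The receptor gene htl had 4 reads and stumps had 2, divided evenly between infested and normal libraries. No library had a read of ths. Only pyr and btl passed the filter on low counts, 2 of 6 genes, and bnl, htl, stumps and ths did not. In these bulk samples, fewer cells of a type and less RNA per cell cannot be told apart.

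**Figure D1:**
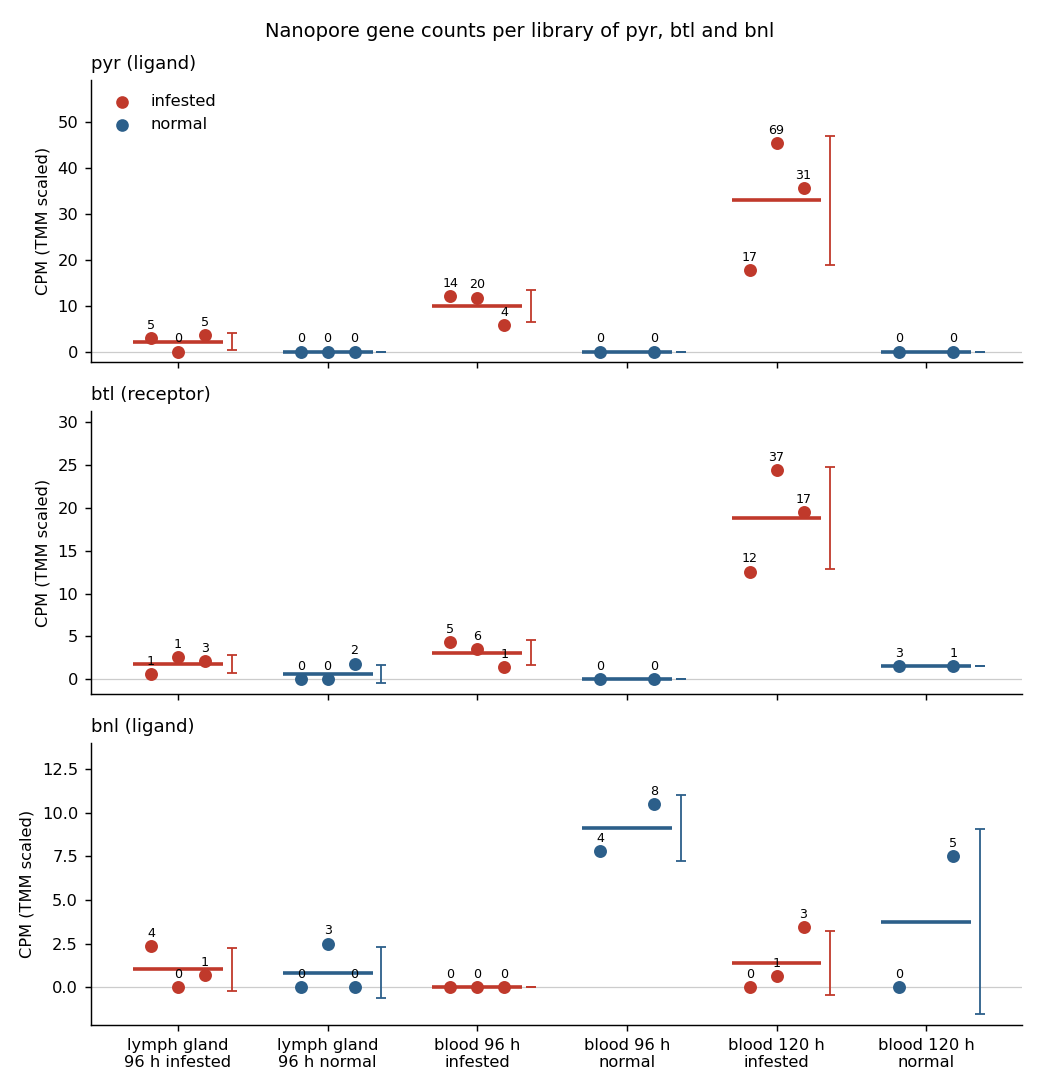
Each point is 1 nanopore library, on the y axis as TMM-scaled CPM, with its read count printed above it; horizontal lines are group means and the bars beside them are SD (n = 3 infested, and n = 3 normal for lymph glands or 2 normal for blood). In blood at 120 h all 3 infested libraries lie above both normal ones for pyr and btl, and for bnl the 2 normal 96 h blood libraries lie above the 3 infested ones, which had no reads. The share of all genes that separate in these ways was not counted.

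In blood at 120 h, pyr had 17, 69 and 31 reads in the infested libraries, against 0 and 0 in the normal libraries. The infested libraries stood at 17.8, 45.5 and 35.6 CPM after TMM scaling, a mean of 33.0 ± 14.1 CPM (SD, n = 3). The groups did not overlap, but the share of all genes that separate this way was not counted, so nothing is read from it. With all reads of a group summed, pyr was at least 33.9-fold higher in infested blood, computed against 3 counts over the normal libraries, and the lower limit of the exact 95% interval of the ratio was 27.1. The receptor gene btl had 12, 37 and 17 reads in the infested libraries, against 3 and 1 in the normal libraries. Its mean was 18.8 ± 5.96 CPM in infested blood (SD, n = 3) and 1.54 ± 0.051 CPM in normal blood (SD, n = 2), again without overlap. The ratio of summed reads was 14.3 (95% exact interval 5.34 to 54.1, counting error only), and the fitted log2 fold change was 3.52 ± 0.77 (SE). The fit listed pyr and btl, the 2 members that passed its filter, among the genes higher at an edgeR adjusted p under 0.05, which were 11.4% of all 7076 genes. Since these counts chose the genes, nothing is read from that.

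In blood at 96 h the same 2 genes had fewer reads. The infested libraries held 14, 20 and 4 reads of pyr, against 0 and 0 in the normal libraries. That is 12.1, 11.8 and 5.80 CPM in infested blood, and with reads summed it was at least 5.27-fold higher in infested blood against 3 counts (lower exact limit 4.08). The receptor gene btl had 5, 6 and 1 reads in infested blood, against 0 and 0 in normal blood, where a count of 0 over both libraries allowed up to 2.15 CPM. The infested libraries of btl thus reached 1.45 to 4.32 CPM, and with reads summed the gene was at least 1.66-fold higher in infested blood against 3 counts (lower exact limit 1.16). The fit listed pyr and not btl among the 3.31% of all genes that edgeR called higher, and for the same reason nothing is read from that.

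In lymph glands at 96 h both genes were near the limit of detection. The 3 infested libraries held 5, 0 and 5 reads of pyr, against 0, 0 and 0 in the normal libraries, and the infested library without a read was the shallowest of the 16. With reads summed, pyr was at least 3.94-fold higher in infested glands against 3 counts (lower exact limit 2.65). The gene btl had 1, 1 and 3 reads in infested glands, against 0, 0 and 2 in normal glands, a ratio of 2.95 whose 95% interval (0.484 to 31.0) includes 1. Neither gene was listed as called, where edgeR called 5.13% of all genes in either direction. In the deeper library of normal glands at 120 h, pyr had 2 reads, or 0.321 CPM (95% exact interval 0.0389 to 1.16), and btl had 7, or 1.12 CPM (0.452 to 2.32).

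Within infested blood the libraries of 120 h held more of both genes than those of 96 h. Summed over infested blood, pyr stood at 36.2 CPM at 120 h and 11.3 CPM at 96 h, a ratio of 3.20 (95% exact interval 2.20 to 4.74), with a fitted log2 change of 1.68 ± 0.45 (SE). Each 120 h library lay above each 96 h library, but the share of all genes that separate this way was not counted. For btl the values were 20.4 CPM at 120 h and 3.58 CPM at 96 h, a ratio of 5.71 (3.06 to 11.6) and a log2 change of 2.49 ± 0.59. Both genes were among the 15.1% of all genes that edgeR called higher, from which nothing is read, because both passed the filter through infested libraries.

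Between the tissues of infested larvae at 96 h, pyr stood at 11.3 CPM in blood and 3.12 CPM in lymph glands, a ratio of 3.62 (95% exact interval 1.77 to 8.16) and a log2 difference of 1.85 ± 0.61 (SE). The ratio for btl was 2.29, with an interval of 0.751 to 8.30 that includes 1. Neither difference was called, beside 11.1% of all genes in either direction. In the normal nanopore libraries of the same kit pyr had no reads, in lymph glands at 96 h or at either age of blood. In these libraries btl had 0 reads in blood at 96 h against 2 in lymph glands. Neither gene was called there or between ages of normal blood, where 7.52% and 4.23% of all genes were called in either direction. Whether the infestation effect on pyr differed between tissues or ages is not given, because every normal group in the fit was at 0.

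The third gene with reads enough to describe, the ligand gene bnl, was higher in normal than in infested blood at 96 h. It had 0, 0 and 0 reads in infested libraries, against 4 and 8 in normal libraries, or 7.80 and 10.5 CPM in normal blood. Summed over libraries it was at least 9.61-fold lower in infested blood, computed against 3 counts, and the exact 95% interval of the ratio reached up to 0.15. The deeper Illumina pair gave a ratio of 0.650 (0.407 to 1.02) for the same contrast, which lies above that limit. At 120 h the groups overlapped, with 0, 1 and 3 reads in infested blood and 0 and 5 in normal blood. Normal blood at 120 h held 1.78 CPM of bnl and normal blood at 96 h held 8.59 CPM, a ratio of 0.208 (95% exact interval 0.0573 to 0.633). Replicate 2 at 120 h had 0 reads, while replicate 3 stood at 7.51 CPM after TMM scaling. The Illumina pair had 53 counts at 120 h and 52 at 96 h, a ratio of 0.685 (0.458 to 1.02). In lymph glands at 96 h bnl had 4, 0 and 1 nanopore reads when infested, against 0, 3 and 0 when normal, which did not separate the groups. The ratio of normal blood to normal lymph gland at 96 h was 10.8, with an interval of 2.92 to 59.8 since the glands held 3 reads. These ratios of bnl were read from few reads and were not tested, because the gene failed the low-count filter.

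The receptor gene htl and the adaptor gene stumps were close to or under the limit of detection with nanopore. All 4 reads of htl were in lymph glands, 2 in an infested library and 2 in a normal one, and no blood library had any. Over the 3 infested and 2 normal 120 h blood libraries a count of 0 for htl allowed up to 0.929 CPM and 1.07 CPM. The adaptor gene stumps had 1 read in infested blood at 120 h, 1 read in normal lymph glands at 96 h and 2 in the 120 h normal lymph gland library. For ths, no reads in any nanopore library allowed up to 0.793 to 2.15 CPM per group of the 16 libraries.

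The deeper Illumina libraries had reads of all 6 genes in every condition and give their levels per transcript length. In infested blood the Illumina order was btl, then pyr, then the rest. Nanopore gave the reverse order of btl and pyr. Its summed reads gave 36.2 CPM of pyr and 20.4 CPM of btl at 120 h, and 11.3 and 3.58 CPM at 96 h. In infested lymph glands they gave 3.12 CPM of pyr and 1.56 CPM of btl. Illumina CPM, also not scaled to length, were 28.7 for pyr and 76.4 for btl in infested blood at 120 h. The order of these genes thus depended on the platform. At 120 h btl stood at 25.3 TPM (a length-scaled share of transcripts; 95% counting interval 23.8 to 26.8) and pyr at 11.2 TPM (10.2 to 12.3), and the other 4 genes lay between 0.12 and 0.47 TPM with intervals that overlap, apart from the lowest, htl, against stumps. At 96 h the order began the same way, with 10.6 TPM of btl (9.70 to 11.6) and 6.62 TPM of pyr (5.85 to 7.47), ahead of bnl at 0.61 TPM. In infested lymph glands btl had 2.54 TPM (2.13 to 3.003), pyr 1.49 TPM (1.16 to 1.89) and bnl 0.72 TPM (0.523 to 0.967). In normal blood at 96 h bnl had 0.91 TPM (0.68 to 1.19), pyr 0.69 TPM (0.462 to 0.991) and btl 0.49 TPM (0.318 to 0.723). The intervals of each pair of these genes overlapped, so their order there is not resolved. Even at its highest, btl ranked below 27.2% of the genes detected in its library, and ths in normal blood at 120 h below 98.9%.

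**Figure D2:**
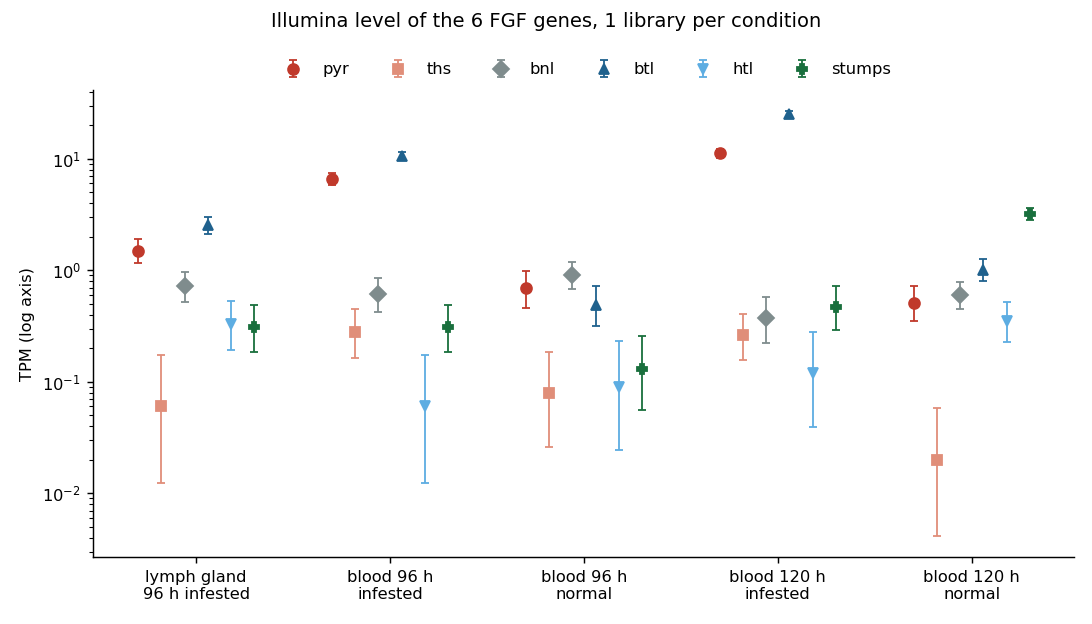
Level of each of the 6 genes as TPM on a log axis in the 5 Illumina libraries, 1 per condition, with bars for the 95% exact Poisson interval of its count (counting error only). The genes btl and pyr stand highest in infested blood, at 25.3 and 11.2 TPM at 120 h, and stumps stands highest of the 6 in normal blood at 120 h, at 3.22 TPM.

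On this second platform pyr had 423 expected counts in infested blood at 120 h, against 33 in normal blood, a CPM ratio of 21.1 (95% exact interval 14.8 to 31.1). At 96 h it had 264 in infested blood, against 29 in normal blood, a ratio of 9.32 (6.34 to 14.2). The receptor gene btl had 1127 in infested blood and 77 in normal blood at 120 h, a ratio of 24.1 (19.1 to 30.8). At 96 h the values were 500 in infested blood and 25.15 in normal blood, a ratio of 20.4 (13.6 to 31.7). Reads of both genes were thus present in normal blood, where nanopore had 0 of pyr and 4 of btl, at 0.49 to 1.01 TPM.

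The second ligand of Heartless, ths, had more counts in infested than in normal blood on Illumina, at a lower level than pyr. It had 19 expected counts in infested blood at 120 h, against 3 in normal blood, a ratio of 10.4 with a wide interval (3.07 to 55.1). At 96 h it had 17 in infested blood, against 5 in normal blood, a ratio of 3.48 (1.23 to 12.1). Its level reached 0.26 to 0.28 TPM in infested blood and 0.02 to 0.08 TPM in normal blood. The ligand gene bnl had 19 counts in infested blood and 53 in normal blood at 120 h, a ratio of 0.591 (0.330 to 1.01), and 33 in infested blood and 52 in normal blood at 96 h. Both intervals include 1. The receptor of pyr and ths, htl, had 5 counts in infested blood and 25 in normal blood at 120 h, and 3 in infested blood and 4 in normal blood at 96 h. Its level in infested blood was 0.06 to 0.12 TPM, against 6.62 to 11.2 TPM for pyr in the same libraries.

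Counting genes with a log2 ratio past 1 and 1 CPM or more in the library where they stood higher, pyr and btl were higher in infested blood at 96 h and no member was lower, where 10.6% of all genes were higher and 4.19% lower. At 120 h pyr, btl and ths were higher and stumps was lower, where 11.8% of all genes were higher and 32.5% lower. Between ages, btl alone was past the fold in infested blood (2.44-fold higher at 120 h, 2.19 to 2.71), where 19.9% of genes were higher and 6.78% lower. The ratio of pyr there was 1.73 (1.48 to 2.03). In infested larvae at 96 h, pyr, btl and ths were higher in blood than in lymph glands and htl was lower, where 12.8% of genes were higher and 4.58% lower. The low counts of ths left its place past the fold dependent on scale: its log2 ratio was 0.30 with a pseudocount of 5 CPM and 0.55 on TPM for infestation at 120 h, and 0.23 and 0.48 between tissues. The ratio was 4.00 (3.05 to 5.30) for pyr and 3.76 (3.11 to 4.58) for btl. Per the labels, short-read lymph gland data came from an earlier dataset, so tissue and dataset cannot be told apart on Illumina.

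The adaptor gene stumps stood out in 1 library. It had 245 expected counts (10.1 CPM, 3.22 TPM) in Illumina normal blood at 120 h, against 8 in normal blood at 96 h, 20.6-fold higher (10.3 to 48.2). Infested blood held 21 counts at 120 h and 18 at 96 h. The same library held 25 counts of htl, against 4 in normal blood at 96 h. Together htl and stumps made 2 members past the fold higher between ages of normal blood, where 37.4% of all genes were higher and 11.9% lower. The median log2 ratio of all genes in that comparison was 0.48, and with ratios taken relative to it, htl fell short of the fold and stumps stood 2.94 above the median. The 2 nanopore libraries of normal blood at 120 h had 0 reads of stumps, which allowed up to 1.07 CPM. The male germline list summed to 807 CPM in the Illumina library, against 14.1 CPM in Illumina normal blood at 96 h and 85.6 to 87.6 CPM in the 2 nanopore libraries. Its part in the stumps value was not tested. Of the annotated transcripts, FBtr0334957 took 84.1% of the gene there and 85.2% in infested blood at 120 h.

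Markers of lamellocytes, the large flat hemocytes that encapsulate wasp eggs, moved with pyr and btl. The 6 genes listed summed to 9992 to 13359 CPM in infested blood at 120 h, against 230 to 236 CPM in normal blood. At 96 h they summed to 3740 to 3804 CPM in infested blood, against 70.7 to 72.2 CPM in normal blood, and in lymph glands to 1412 to 2007 CPM when infested, against 74.2 to 90.5 CPM when normal. Set against the lamellocyte surface antigen gene atilla, infested blood held 7.95, 9.35 and 7.95 reads of pyr per 1000 atilla reads at 120 h and 9.47, 8.14 and 4.35 at 96 h. For btl the ratio was 5.61, 5.01 and 4.36 at 120 h and 3.38, 2.44 and 1.09 at 96 h. The 120 h values of pyr lay within the range at 96 h, and those of btl lay above it. On Illumina infested blood held 24.5 reads of pyr per 1000 of atilla at 120 h and 29.4 at 96 h, and 65.3 of btl at 120 h and 55.7 at 96 h. Illumina normal blood at 120 h held 128 of pyr and 298 of btl per 1000, over 258 atilla counts. On Illumina the 6 genes summed to 23388 CPM in infested blood, against 4254 CPM in normal blood, at 120 h and to 9432 CPM, against 334 CPM, at 96 h. Of the 4254 CPM, 3548 CPM were betaTub60D alone, and atilla stood at 1170 CPM in infested blood, against 10.6 CPM in normal blood. The part of lamellocyte number in the change of either gene was not tested.

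**Figure D3:**
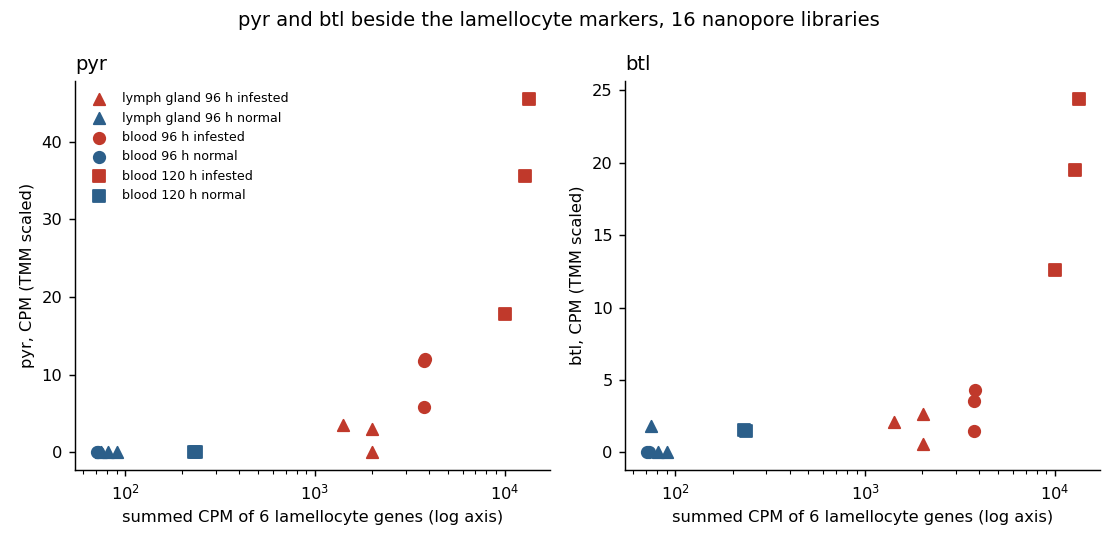
Level of pyr (left) and btl (right) in TMM-scaled CPM against the summed CPM of 6 lamellocyte genes on a log axis, 1 point for each of the 16 nanopore libraries. The 3 libraries of infested blood at 120 h lie at the upper right in both panels, and the normal libraries lie at the lower left, with no pyr and at most 1.83 CPM of btl.

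Since btl is a tracheal gene, markers of trachea were set beside it. The 8 tracheal genes summed to 3.96 to 10.5 CPM in infested blood at 120 h, where btl was highest, against 1.57 to 6.01 CPM in normal blood, and 2 to 4 of the 8 had a read in each of those libraries. At 96 h their sum was 25.9 to 40.6 CPM in infested blood, where btl was lower than at 120 h, against 13.7 to 19.6 CPM in normal blood. In lymph glands at 96 h it was 7.89 to 10.6 CPM when infested, against 9.53 to 50.4 CPM when normal. The tracheal selector gene trh was at 0 in every one of the 16 libraries except replicate 2 of normal blood at 120 h. The deeper Illumina libraries all had counts of trh, at 0.31 to 0.81 CPM. Infested blood held 12 counts (0.81 CPM) at 120 h, against 8 (0.33 CPM) in normal blood, and 9 at 96 h, against 5. On Illumina the 8 genes summed to 14.9 CPM in infested blood at 120 h, against 9.41 CPM in normal blood, and to 21.3 CPM in infested blood at 96 h, against 5.25 CPM in normal blood. The part of trachea in the level of btl was not tested.

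Genes of other tissues moved as well. The 14 midgut genes summed to 3003 to 4431 CPM in infested blood at 96 h, against 334 to 345 CPM in normal blood, but to 31.0 to 59.7 CPM in infested blood at 120 h, against 563 to 611 CPM in normal blood. In lymph glands at 96 h they summed to 151 to 2365 CPM when infested, against 0 to 6.41 CPM when normal. The male germline list summed to 266 to 405 CPM in infested blood at 120 h, against 85.6 to 87.6 CPM in normal blood with nanopore, and to 121 CPM in infested blood, against 807 CPM in normal blood on Illumina. Illumina gave 17.0 CPM of the midgut genes in infested blood at 120 h and 2.76 CPM in normal blood, the opposite order to nanopore. The 13 muscle genes summed to 1053 to 2644 CPM in infested blood at 96 h, against 3214 to 3740 CPM in normal blood. At 120 h replicate 1 of infested blood, the lowest of the 3 for pyr and btl, held 1243 CPM of the muscle genes, against 525 and 555 CPM in the other two infested libraries. The 6 fat body genes summed to 3042 CPM in that library and to 470 and 511 CPM in replicates 2 and 3, against 3075 and 3637 CPM in normal blood. Without replicate 1 the fitted log2 change of btl at 120 h was 3.82, against 3.52 with it. The 8 plasmatocyte genes summed to 2471 to 2841 CPM in infested blood at 120 h, against 5674 to 5711 CPM in normal blood. Crystal cell genes, 4 in the list, summed to 619 to 1435 CPM in infested blood at 120 h, against 4602 to 4616 CPM in normal blood. Lymph glands at 96 h held 193 to 299 CPM of the 6 ring gland genes, against 0 to 11.2 CPM in blood of either age. They held 45.2 to 106 CPM of the 5 heart and pericardial genes, against 0 to 15.6 CPM in blood. Only 2 or 3 of those 5 had reads in each gland library. The part of these tissues in the levels of pyr, btl, bnl and htl was not tested.

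The 2 annotated transcripts of btl share their coding sequence and differ in the first exons. FBtr0075778 holds 215 bases that the other lacks and FBtr0100676 starts 1293 bases downstream with 63 bases of its own, 1.68% of its length. Every nanopore transcript assignment of btl, 59.5 estimated counts in 10 libraries, was to FBtr0100676. On Illumina it took 100% of btl in 4 of 5 libraries, including 1127 counts in infested blood at 120 h, and FBtr0075778 took 100% in normal blood at 96 h. With 25.15 counts in that library, 1.38 reads would be expected in the 215 bases that tell the transcripts apart, so that few reads bear on which transcript was present. Isoform shares were tested in 1609 genes, and none of the 6 FGF genes passed the filter of that test. Of pyr, which has 1 annotated transcript, 125 of 165 nanopore reads were assigned to it.

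**Figure D4:**
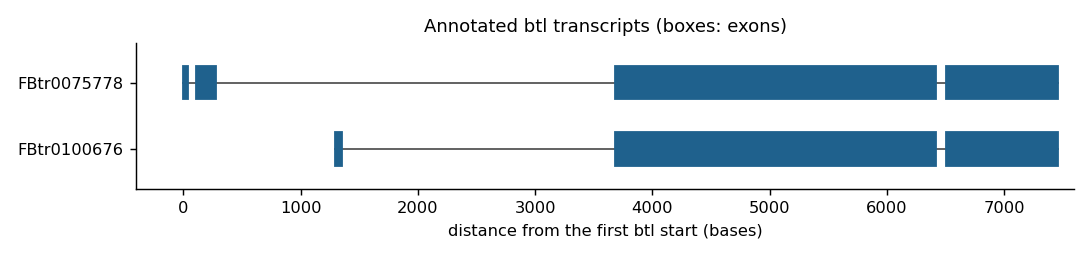
Exons (boxes) of the 2 annotated btl transcripts, along the distance in bases from the first btl start. The transcripts share their last 2 exons, FBtr0100676 starts 1293 bases downstream, and FBtr0075778 has 2 exons ahead of the shared ones.

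Genes that carry the signal onward were measured by the same fit and are given with their tests; these lists too were drawn up with results of these data known. Of 38 listed genes 30 passed the low-count filter. In blood at 120 h, 4 rose and 3 fell among the 30, where 19.4% of all genes were called, and their median log2 change was -0.04, against -0.03 over all genes tested. In blood at 96 h, 2 rose and 1 fell, where 4.97% of all genes were called, with a median of -0.38, against 0 over all genes. In lymph glands edgeR called 0 of 30. There, 6 had an unadjusted p under 0.05, and DESeq2 called 1, Ras85D.

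In the Ras/MAPK cascade, 1 of 9 genes tested was called at each age of blood, beside 19.4% of all genes at 120 h and 4.97% at 96 h, Ras85D, the Ras GTPase itself. It rose at 120 h, with 281 to 329 CPM in the infested libraries and 96.0 to 102 CPM in the normal ones, by a log2 change of 1.64 ± 0.19 (SE, edgeR adjusted p = 2.18e-05). Its mean was 309 ± 24.8 CPM in infested blood (SD, n = 3) and 99.1 ± 4.34 CPM in normal blood (SD, n = 2). At 96 h it rose by 0.83 ± 0.20 (edgeR adjusted p = 0.0237), to 176 ± 24.1 CPM in infested blood, against 99.5 ± 5.51 CPM in normal blood. The 96 h call was lost without infested replicate 1 or 2 or without either normal library (edgeR adjusted p up to 0.19), and with blood replicates 2 and 3 summed (edgeR adjusted p = 0.284). On Illumina Ras85D had 456 CPM in infested blood and 284 CPM in normal blood at 120 h, and 298 CPM in infested blood and 171 CPM in normal blood at 96 h. Within infested blood Ras85D was also higher at 120 h than at 96 h (log2 change 0.81 ± 0.16, edgeR adjusted p = 0.00194).

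Among the brakes of the pathway, 1 of 4 genes tested was called at each age of blood, beside 19.4% of all genes at 120 h and 4.97% at 96 h. It was sty, which encodes Sprouty, an inhibitor of FGF receptor signalling first described at Breathless. It fell in blood at 96 h by 0.85 ± 0.22 log2 units (edgeR adjusted p = 0.0405), to 66.4 ± 11.2 CPM in infested blood (SD, n = 3), against 120 ± 14.6 CPM in normal blood (SD, n = 2). At 120 h it fell by 0.73 ± 0.22 (edgeR adjusted p = 0.0309), to 57.6 ± 7.66 CPM in infested blood, against 95.6 ± 13.5 CPM in normal blood. Neither call held with DESeq2 (adjusted p = 0.0677 and 0.107), and leaving out any 1 of the 5 libraries of 120 h blood ended the 120 h call. The 96 h call was lost without infested replicate 1 or 3 or either normal library of 96 h blood, and also without replicate 3 of 120 h infested blood, either 120 h normal blood library or infested lymph gland replicate 2. On Illumina sty had 287 CPM in infested blood, against 441 CPM in normal blood, at 96 h, and 215 CPM, against 235 CPM, at 120 h.

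Nuclear targets and regulators held 1 call of 4 tested at 120 h, beside 19.4% of all genes. The gene edl, which encodes an antagonist of the ETS repressor Yan, fell in blood at 120 h by 0.70 ± 0.22 log2 units (edgeR adjusted p = 0.0367), to 37.9 ± 1.05 CPM in infested blood, against 61.1 ± 5.64 CPM in normal blood. Omitting any 1 of the 5 libraries of 120 h blood or either 96 h normal blood library ended the call, as did DESeq2 (adjusted p = 0.234). On Illumina edl had 15.7 CPM in infested blood and 29.4 CPM in normal blood at 120 h. The ETS activator gene pnt was not called in any infestation comparison and was higher in blood than in lymph glands at 96 h, by 0.73 ± 0.18 in infested larvae (edgeR adjusted p = 0.0168) and 1.02 ± 0.20 in normal larvae (edgeR adjusted p = 0.00432). The first of these was lost without infested blood replicate 2 or infested lymph gland replicate 1, and the second without normal blood replicate 3. Both were lost with blood replicates 2 and 3 summed (edgeR adjusted p = 0.0948 and 0.0611).

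Of genes that make or carry heparan sulfate 9 were tested, and 2 rose and 1 fell in blood at 120 h, where 19.4% of all genes were called. The gene sfl, which encodes the N-sulfotransferase needed for FGF signalling in fly embryos, rose by 1.86 ± 0.42 (SE, edgeR adjusted p = 0.00591), to 40.3 ± 4.61 CPM in infested blood, against 12 ± 4.32 CPM in normal blood. The glypican gene dally rose by 1.49 ± 0.32 (edgeR adjusted p = 0.00442), to 41.3 ± 4.00 CPM in infested blood, against 14.4 ± 1.20 CPM in normal blood. Illumina gave 153 CPM of sfl in infested blood and 16.3 CPM in normal blood, and 63.7 CPM of dally in infested blood and 2.39 CPM in normal blood. The gene sgl, which encodes the UDP-glucose dehydrogenase that supplies the chains with building blocks, fell by 0.95 ± 0.19 log2 units (edgeR adjusted p = 0.00263), to 49.2 ± 8.89 CPM in infested blood, against 95.5 ± 5.18 CPM in normal blood. Illumina showed 139 CPM of sgl in infested blood and 140 CPM in normal blood. Without normal replicate 2 the calls of sfl and dally at 120 h were lost (edgeR adjusted p = 0.151 and 0.0626), and that of sgl was kept without each library in turn. With blood replicates 2 and 3 summed, sfl (edgeR adjusted p = 0.0877) and sgl (edgeR adjusted p = 0.0699) were no longer called. At 96 h the exostosin-like gene botv rose by 1.50 ± 0.36 (edgeR adjusted p = 0.0277), to 22.8 ± 4.17 CPM in infested blood, against 7.83 ± 0.038 CPM in normal blood. That call was lost by DESeq2 (adjusted p = 0.121), without infested replicate 3 and without either normal library, and Illumina gave 94.4 CPM in infested blood and 81.7 CPM in normal blood.

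Of factors known to act upstream of btl or bnl, 1 of 4 tested was called in blood, at 120 h, beside 19.4% of all genes. Hph (fatiga), the HIF prolyl hydroxylase, whose target Sima drives bnl in hypoxic tissue, rose at 120 h by 1.49 ± 0.49 (SE, edgeR adjusted p = 0.0428). Leaving out any 1 of the 5 libraries of 120 h blood ended that call, as did leaving out either 96 h normal blood library, infested lymph gland replicate 1 or normal lymph gland replicate 2, and so did DESeq2 (adjusted p = 0.0933). On Illumina Hph had 42.8 CPM in infested blood and 38.8 CPM in normal blood at 120 h. Neither the gene for the tracheal selector trh nor twi passed the low-count filter.

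**Figure D5:**
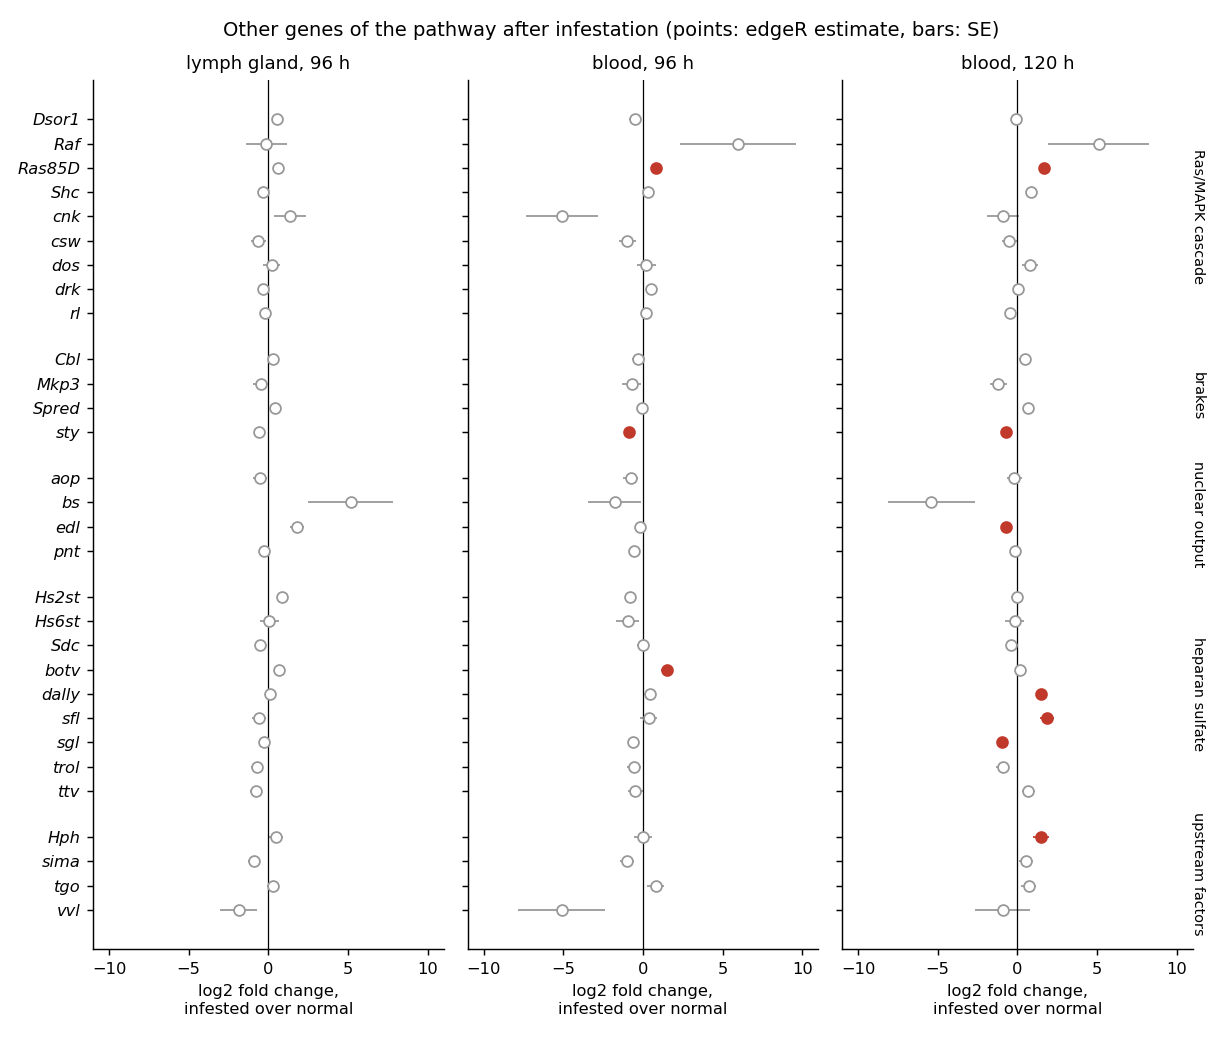
Log2 fold change of infested over normal samples for the 30 other pathway genes tested, for lymph glands (96 h) and blood (96 h and 120 h); points are edgeR estimates, bars are SE, and filled points passed an adjusted p of 0.05. No point is filled for lymph glands, 3 are for 96 h blood and 7 for 120 h blood, and the long bars of Raf, cnk, bs and vvl belong to genes with no reads in some groups.

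Between ages of infested blood, 6 of the 30 pathway genes rose and 1 fell at 120 h, where edgeR called 24.4% of all genes, with a median of 0.52, against 0.07 over all genes. Beside Ras85D these were sfl (1.72 ± 0.36, edgeR adjusted p = 0.00263), dally (1.14 ± 0.27, edgeR adjusted p = 0.00674), the adaptor genes Shc (1.00 ± 0.27, edgeR adjusted p = 0.0129) and drk (0.67 ± 0.18, edgeR adjusted p = 0.0118), and the scaffold gene cnk. The value of cnk rests on 96 h libraries without a read and its call was lost in 12 of 16 fits that left out a library. Illumina infested blood held 63.0 CPM of cnk at 120 h and 71.2 CPM at 96 h, the opposite order. There Shc (114 and 71.1 CPM) and drk (190 and 152 CPM) kept theirs. The calls of Shc without 96 h or 120 h infested replicate 2, and of drk without 120 h infested replicate 3, were also lost (edgeR adjusted p up to 0.0697 and 0.074). With blood replicates 2 and 3 summed, Shc, drk and cnk all lost their calls (edgeR adjusted p = 0.11, 0.142 and 0.115). The gene that fell was sgl, by 1.20 ± 0.17 log2 units (edgeR adjusted p = 0.000221). In normal blood drk rose (1.10 ± 0.24, edgeR adjusted p = 0.0162) and sgl fell by 0.90 ± 0.21 (edgeR adjusted p = 0.0225), both calls resting on each of the 4 libraries compared.

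Between tissues at 96 h, edl was higher in blood than in lymph glands. It had 28.5 ± 7.16 CPM in infested blood and 5.86 ± 1.76 CPM in infested glands, a log2 difference of 2.40 ± 0.28 (SE, edgeR adjusted p = 3.61e-05). In normal larvae it had 31.3 ± 0.153 CPM in blood and 1.42 ± 0.52 CPM in glands, a difference of 4.37 ± 0.37 (edgeR adjusted p = 3.34e-06). The brake gene sty was higher in blood in both (0.84 ± 0.21 in infested larvae, edgeR adjusted p = 0.0173, and 1.08 ± 0.22 in normal larvae, edgeR adjusted p = 0.006), and dally was lower in both (-1.25 ± 0.28, edgeR adjusted p = 0.00728, and -1.63 ± 0.36, edgeR adjusted p = 0.0103). Without normal blood replicate 2 the calls of sty and dally in normal larvae were lost, and the call of sty in infested larvae was lost without infested blood replicate 2 or infested lymph gland replicate 1 or 2. With blood replicates 2 and 3 summed, all 3 of these calls were lost (edgeR adjusted p = 0.0838 for sty and 0.0635 for dally in normal larvae, 0.0963 for sty in infested larvae). The heparan sulfate 2-O-sulfotransferase gene Hs2st was higher in normal blood than in normal glands (1.77 ± 0.38, edgeR adjusted p = 0.00835), as was sgl (0.83 ± 0.18, edgeR adjusted p = 0.0103), and each call was lost without either normal blood library. In infested larvae drk was higher in blood (0.66 ± 0.19, edgeR adjusted p = 0.0379), a call lost in 8 of 16 fits that left out a library and by DESeq2 (adjusted p = 0.0585). The count of lower genes there includes cnk (edgeR adjusted p = 0.0422), which had no reads in infested blood and lost its call in 10 of the 16. On Illumina infested blood held 71.2 CPM of cnk and infested glands 64.6 CPM, the opposite order, and 152 and 137 CPM of drk. In all, 4 of 30 were higher in blood and 2 lower in infested larvae, and 5 higher and 1 lower in normal larvae, beside 11.1% and 7.52% of all genes called. Whether infestation acted differently on these genes in blood than in glands, or at 120 h than at 96 h, was tested as an interaction, and edgeR and DESeq2 called 0 of 30 in either, with 4 genes at an unadjusted p under 0.05 in each, where edgeR called 0.283% and 1.99% of all genes.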

How the data were processed

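Gene counts of 17 nanopore libraries, deposited by the authors as whole-number read counts per gene, were used as given, and the authors' estimated counts per transcript were rounded to whole numbers for the isoform test. For Illumina, the authors deposited RSEM expected counts, TPM, FPKM and percent of each gene per transcript, per the file headers. The submitters' processing notes name minimap2 2.17-r941 and RSEM 1.3.1, STAR 2.5.3a, FastQC 0.11.8 and StringTie 2.1.3 besides. Genome build and strand setting, which matter for overlapping genes, were not given in the sources used here. Of 17714 FlyBase identifiers, 17663 matched Ensembl 115. Reads without a gene (0.379 to 0.777%) and ambiguous reads (0.498 to 1.29%) stayed out of totals.

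The 16 nanopore libraries of 1 kit were fitted together with edgeR 4.0.16 in R 4.3.3. Settings were TMM scaling, filterByExpr with a minimum count of 10 and minimum total of 15, and the default prior count of the fit. Tests were quasi-likelihood F tests with Benjamini-Hochberg adjustment over 7076 genes. DESeq2 1.42.0, DESeq2 size factors, no filter, each library left out, summed replicates and a replicate block were alternatives. The SE of a fitted log2 change was taken as its absolute value divided by the square root of the F statistic. It is thus tied to the p-value of that test and is no separate measure of spread. The 120 h lymph gland library was described only. Illumina ratios are log2 of CPM plus 0.5. Intervals are exact Poisson or binomial 95% intervals, cover counting error only, and were computed with SciPy 1.17.1. A count of 0 was bounded at 3 counts. The fit was tested on simulated data.

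The 6 genes and all lists were chosen with earlier results of these data known, and the male germline list and the median-centred ratios after the values were seen. Named genes were the 6 FGF genes and every called gene of the pathway lists, up to 6 per list and comparison. Genes of similar pattern were to be named for any member with at least 10 reads in 6 libraries, which none had. One annotated item beside these genes is not reported here.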

Additional observations from a re-analysis of the deposited data

How the results depend on the processing

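Depth limits most statements: at these totals bnl, htl, stumps and ths could not be tested with nanopore, and every value of pyr in the normal nanopore libraries of the same kit is a limit. Deviations of same-numbered replicates from their group means, in log2 CPM with prior count 2, correlated at -0.0221 to 0.132. In blood this check could hardly find pairing. The 2 normal libraries of each age have mirror-image deviations, and infested replicate 1 has no normal partner. Whether replicate numbers pair the samples is thus undecided, and the replicate block is only an alternative. Summing blood replicates 2 and 3, which resembled each other, lowered the genes called from 363 to 200 in lymph glands, 352 to 71 in blood at 96 h and 1375 to 437 at 120 h. It also lowered them from 299 to 26 between ages of normal blood, 1730 to 799 in infested blood, 532 to 214 between normal tissues and 783 to 430 between infested ones, and the interactions from 20 to 1 and from 141 to 0. Without the low-count filter 636, 744, 660, 2706 and 893 genes were called in lymph glands, 96 h blood, age in normal blood, age in infested blood and normal tissues, and 183 and 488 in the tissue and age interactions. DESeq2 called 61 in the tissue interaction, and the replicate block 453 for age in normal blood and 32 and 220 in the interactions.

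Fitted log2 changes against groups without reads, and their SE, depend on the default prior count of the fit and are no bound. For pyr in 96 h blood the value of 6.54 was 7.03 with summed replicates and 6.63 with the replicate block, both no longer called, as without infested 96 h blood replicate 1 or 2, either 96 h normal blood library, 120 h infested blood replicate 3 or infested lymph gland replicate 1. For age in infested blood pyr lost its call at 1.50 (summed) and 1.73 (DESeq2), and btl at 2.34 (summed), as btl did at 3.47 for 120 h blood (summed). The pyr age call was also lost without 120 h infested replicate 2 (1.37) or 3 (1.60) or 96 h infested replicate 2 (1.82) or 3 (1.48), and the btl call at 120 h without normal replicate 2 (3.56). Summing the replicates ended 25 calls of members and pathway genes in all. Without the filter pyr gained a call in lymph glands (4.72) and between infested tissues (1.83), the second also without 120 h infested blood replicate 1 (1.84). Illumina members past the fold went to 1 higher between ages of normal blood and 0 lower between tissues with a pseudocount of 5 or TPM, the first also after median-centring, an alternative added after seeing the data.

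Leaving out 1 library at a time gave 198 to 425 genes in lymph glands, 119 to 456 in 96 h blood, 621 to 1415 in 120 h blood, 116 to 380 and 1186 to 1998 for age in normal and infested blood, 270 to 621 and 543 to 892 for normal and infested tissues, and 4 to 41 and 23 to 246 for the interactions. For pyr the range was 4.41 to 4.97 in lymph glands, 6.35 to 6.78 in 96 h blood, 7.86 to 8.55 in 120 h blood, 1.37 to 1.99 for age and 1.64 to 2.11 for tissue. For btl it was 0.68 to 3.82, 4.70 to 5.19, 3.27 to 3.82, 2.24 to 2.72 and 0.53 to 1.59 in the same order. No value in these comparisons reversed its direction, and the cause of the changes was not tested.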
